A study of Mus musculus with 2 samples.

Results

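The microRNA genes Mir10a, Mir10b, Mir196b, Mir196a-2, Mir196a-1 and Mir615 lie inside the Hox gene clusters of the mouse, and their reads were examined in newborn kidney. They were taken as a list of named genes located in these clusters, and all 6 had a row among the 1973 microRNA genes of the count tables. GENCODE release M21 places 7 microRNA genes between the outermost Hox genes of the 4 clusters. The seventh, Gm44463 of the Hoxd cluster, is not on the list and is not analysed here. Small RNA was sequenced from 2 pups of strain B6NCrl at postnatal day 0, with 2 kidneys pooled per pup and both pups labelled under pregnancy number 1. No treatment or genotype other than the strain was given, and sex was not collected. The pups form 1 group of 2 replicates, so the comparisons are those between genes within a library and that between the pups.

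Hox genes encode transcription factors that give cells along the head-to-tail axis their position, and the order of the genes in each cluster follows the order of their expression along that axis. MicroRNA genes of the miR-10 family sit beside Hox group 4 genes, and those of the miR-196 family sit upstream of Hox group 9 genes. A microRNA hairpin is cut to a mature strand that guides Argonaute to messenger RNAs, mainly through the seed, bases 2 to 8. Hox messages are known targets of miR-10 and miR-196, and kidney precursors arise in the posterior mesoderm, where Hox genes of groups 9 to 11 are known to act.

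The mature sequences below, from RefSeq on build GRCm38.p6, show how the members are related, with the seed in capitals. Only the strand conventionally taken as the guide is shown for each member.
miR-10a-5p: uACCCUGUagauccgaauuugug
miR-10b-5p: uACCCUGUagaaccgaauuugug
miR-196a-5p: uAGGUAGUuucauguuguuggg
miR-196b-5p: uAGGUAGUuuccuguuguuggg
miR-615-3p: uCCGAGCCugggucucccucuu
The members thus hold 3 seeds. Counted from 1 at the 5′ end, miR-10a-5p and miR-10b-5p differ by 1 substitution, U12A, and miR-196a-5p and miR-196b-5p also by 1, A12C. In both families the difference is at position 12, outside the seed. No mature sequence of another gene in the RefSeq table has 1 of these 3 seeds.

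Mir196a-1 and Mir196a-2 give the same mature miR-196a-5p. Their hairpins are shown around that strand, with the stretch that both share in capitals, because it sets which reads could be counted.
Mir196a-1: gaagUAGGUAGUUUCAUGUUGUUGGGccug
Mir196a-2: ggcuUAGGUAGUUUCAUGUUGUUGGGauug
The shared stretch is 22 bases long and is the whole of the mature strand. A read inside it matches both genes equally well, and reads with several places were set apart as multimapping, at 30.3% of all reads in pup 1 and 31.0% in pup 2. Values of these 2 genes leave such reads out, so they are uncertain and miR-196a as a whole was not measured. The longest run that Mir10a and Mir10b have in common with each other is 15 bases, and neither these hairpins nor those of Mir196b and Mir615 share 22 bases with any other annotated hairpin. Matches outside annotated hairpins were not searched, so a loss of their reads to multimapping was not measured.

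On mm10, Mir10a (ENSMUSG00000065519.1) occupies chr11:96317165-96317274 on the plus strand, with no transcript of a protein-coding or long noncoding gene over it on that strand. The nearest coding regions are those of Hoxb5, 12.03 kb upstream, and Hoxb4, 1.496 kb downstream. Mir10b (ENSMUSG00000065500.2) occupies chr2:74726070-74726137, plus strand, in introns of Hoxd3 and Hoxd4 transcripts and 1.14 kb before the Hoxd4 coding region. Both miR-10 genes therefore lie just upstream of a group 4 gene. Mir196b (ENSMUSG00000065443.1) occupies chr6:52230081-52230165 on the minus strand, between the coding regions of Hoxa10 (2.34 kb) and Hoxa9 (3.98 kb). An exon covers it in 2 of the 3 Hoxa9 transcripts there. Mir196a-2 (ENSMUSG00000065488.1) occupies chr15:102973350-102973434, plus strand, between Hoxc10 (2.28 kb) and Hoxc9 (8.22 kb), in an intron of a long Hoxc5 transcript. Mir196a-1 (ENSMUSG00000065546.1) occupies chr11:96265164-96265265, plus strand, 6.28 kb before the Hoxb9 coding region and 68.9 kb after that of Hoxb13, with no host transcript. Mir615 (ENSMUSG00000076010.1) occupies chr15:103014910-103015001, plus strand, in an intron inside the Hoxc5 coding span.

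**Figure D1:**
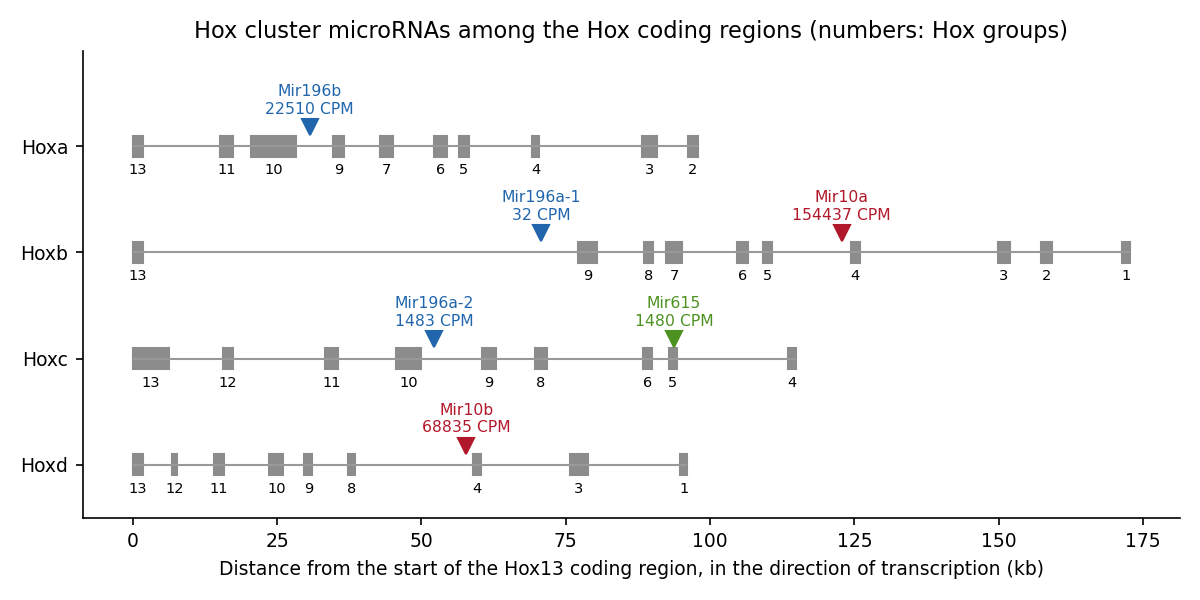
Position of the 6 microRNA genes (triangles, with mean CPM over 2 pups) among the Hox coding regions (grey boxes, numbered by Hox group) in each cluster, as distance in kb from the start of the Hox13 coding region. Red marks miR-10, blue miR-196 and green miR-615 genes, and levels run from 32.3 CPM in Mir196a-1 to 154437 CPM in Mir10a.

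Counts on the strand of microRNA genes came to 5832192 in pup 1 and 3846704 in pup 2, and levels are counts scaled to that total (CPM). The tissue label was checked by markers. The epithelial miR-200 genes held 3.16% ± 0.00771 (SD, n = 2) of counts and the proximal tubule genes miR-192, miR-194 and miR-215 0.0872% ± 0.00340. Of the 5 counted striated muscle genes, 4 were at 0 (Mir133b, Mir133a-1, Mir133a-2 and Mir1a-1), and of the 5 neuronal genes 3 were (Mir124a-1, Mir124a-2 and Mir124a-3), though copies of most of these leave a 0 without a bound. The genes not at 0 were Mir206 of muscle, at 4.78 ± 0.512 CPM, and Mir9-3 and Mir9-2 of neurons, at 1.68 ± 0.196 and 0.130 ± 0.184 CPM. Mesenchyme and smooth muscle genes held 4.24% ± 0.301, leukocyte genes 0.0586% ± 0.00355, and the liver gene Mir122 50.6 ± 9.003 CPM. These shares leave out multimapping reads, so lists that hold genes with several copies, the proximal tubule and mesenchyme lists among them, can stand too low. The red blood cell genes Mir451a, Mir144 and Mir486 came to 241 CPM in pup 1 and 98.8 CPM in pup 2. Of them only Mir451a was lower in pup 2, at 208 and 53.6 CPM. Mir144, at 32.2 and 42.9 CPM, and Mir486, at 0.686 and 2.34 CPM on 4 and 9 counts, were higher in pup 2. Mir126a of endothelium stood at 71968 and 87209 CPM. The part of these cell types in the values below was not tested, and in whole tissue the number of cells and the RNA per cell cannot be told apart.

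Of the counts assigned to named genes, the 6 genes took 25.4% in pup 1, with 95% Wilson bounds of 25.36 and 25.43%. In pup 2 they took 24.4%, with bounds of 24.31 and 24.40%, for a mean of 24.9% ± 0.737. With all reads of the tables as the denominator, multimapping and unmapped ones included, the mean share was 14.4%, and without Mir10a in list and total it was 11.2%. Nearly all of it came from Mir10a, Mir10b and Mir196b, at 98.8% of the reads of the 6 genes in each pup. All 6 members reached 10 CPM in both pups, against 12.5% of all 1973 genes. At 1000 CPM, 5 of the 6 remained, beside 73 of all genes. By cluster, the Hoxb genes held 62.1% ± 0.0269 of the reads of the 6, the Hoxd gene 27.7% ± 0.187, the Hoxa gene 9.05% ± 0.155 and the 2 Hoxc genes 1.19% ± 0.00438. These shares of the counted reads differed by far more than the pups did. Reads inside the strand shared by Mir196a-1 of Hoxb and Mir196a-2 of Hoxc were left out, so this division covers counted reads only. All intervals and floors cover counting error only, since copies of a molecule made by PCR could not be told apart, and how many reads each mature sequence yields per molecule was not measured.

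**Figure D2:**
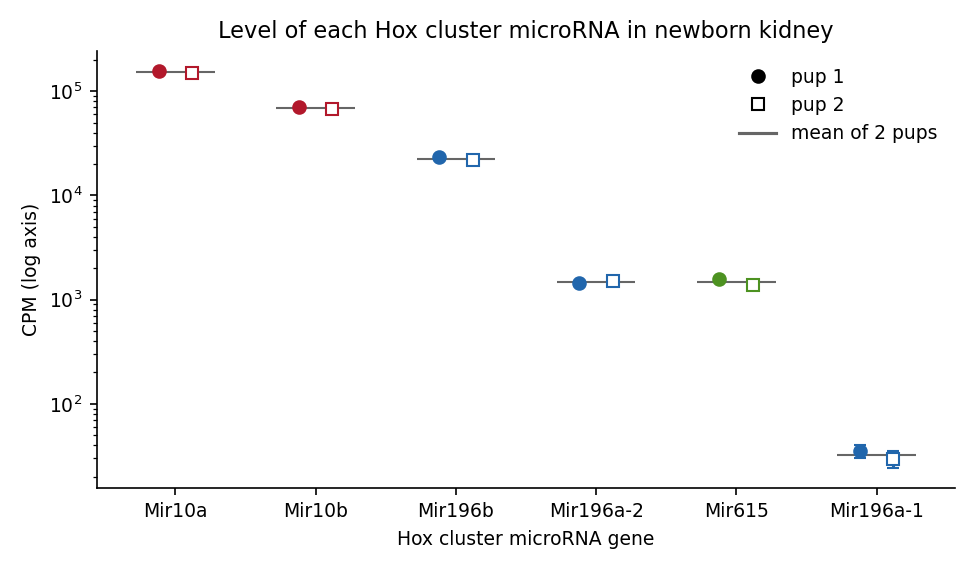
CPM (log axis) of each Hox cluster microRNA gene in pup 1 (filled) and pup 2 (open), with 95% Poisson counting intervals and the mean as a line. The miR-10 genes lie highest, and Mir196a-1 lies lowest, at 35.1 and 29.4 CPM. Mir196a-2 and Mir615 have close means, 1483 and 1479.6 CPM, but opposite orders in the pups. Values of Mir196a-2 and Mir196a-1 leave out reads inside the strand they share.

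Mir10a, the miR-10 gene of the Hoxb cluster, stood at 157719 CPM in pup 1 and 151155 CPM in pup 2. Among counts assigned to a single gene it ranked first in each pup, and the gap to Mir126a, next in rank, was 74848 CPM, well above the SDs of 4642 and 10777 CPM. Mir10b, its Hoxd counterpart, stood at 69950 and 67721 CPM and held rank 3 in each. The distance from Mir10b up to Mir126a, 10753 CPM, was no larger than the SD of Mir126a, although Mir126a was the higher gene in both pups. Ranks leave out the multimapping reads, so genes whose mature sequence has several copies, such as Mirlet7a-1 at 173 CPM, can stand too low, and where such sequences would rank was not measured. Below Mir10b came Mir335, a microRNA of the imprinted gene Mest, at 54955 ± 1919 CPM, a gap larger than either SD.

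Mir10a made up 69.3% of the reads of the miR-10 pair in pup 1 (Wilson bounds 69.20 and 69.35%) and 69.1% in pup 2 (bounds 68.96 and 69.16%). The division between Hoxb and Hoxd copies was therefore nearly the same in both animals. Together the pair gave the seed ACCCUGU 223272 ± 6218 CPM, which is 22.3% ± 0.622 of counts assigned to named genes. Hairpin counts hold both strands of a hairpin, so the part of the 5p strand in these sums was not separated. On the strand opposite to the members, 1 read was listed for Mir10a in pup 2 and 1 for Mir196a-2 in pup 1, and 0 for the other genes and libraries.

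Members of the miR-99/100 family resemble miR-10 but have another seed, and miR-100-5p shows where the sequences part.
miR-10a-5p: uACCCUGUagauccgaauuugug
miR-100-5p: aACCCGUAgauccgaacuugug
The longest stretch the 2 sequences share is 11 bases, from position 7 of miR-10a-5p and position 6 of miR-100-5p. The miR-99/100 genes, Mir99a, Mir99b and Mir100, came to 35504 CPM in pup 1 and 41462 CPM in pup 2, below the miR-10 pair in both. Mir99a stood at 25516 ± 3323 CPM, Mir99b at 9421 ± 544 and Mir100 at 3546 ± 345.

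Mir196b, the Hoxa copy of the miR-196 family, stood at 23255 CPM in pup 1 and 21765 CPM in pup 2, ranks 13 and 14. It lay below Mir23b (24272 ± 65.8 CPM) by more than either SD and above Mir30a (21077 ± 1872 CPM) by less than the SD of Mir30a. Mir196a-2 of the Hoxc cluster stood at 1452 and 1515 CPM, and Mir196a-1 of the Hoxb cluster at 35.1 and 29.4 CPM. Counts behind Mir196a-1 were 205 in pup 1 and 113 in pup 2. Their Poisson intervals, 30.5 to 40.3 CPM and 24.2 to 35.3 CPM, overlap. It could not be separated from its neighbours in level, Mir103-2 (34.002 ± 0.0747 CPM) and Mir212 (32.0 ± 3.29 CPM).

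Reads counted for Mir196b exceeded those of Mir196a-2 by 16.02-fold in pup 1 and 14.4-fold in pup 2, and Mir196a-2 exceeded Mir196a-1 by 41.3-fold and 51.6-fold. Only reads that reach past the shared stretch, or come from another place in the hairpin, can separate Mir196a-2 from Mir196a-1, so these folds are not folds of the mature strand. The 3 genes together had 24025 ± 1013 CPM, 2.40% ± 0.101 of counts, of which the ambiguous miR-196a reads form no part.

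The seed of miR-196, AGGUAGU, overlaps that of let-7, GAGGUAG, by 6 letters, shifted by a base. The start of both strands shows it.
miR-196a-5p: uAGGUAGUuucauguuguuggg
let-7g-5p: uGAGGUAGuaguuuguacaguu
The 10 counted let-7 and miR-98 genes came to 118357 ± 1547 CPM, above the miR-196 trio in both pups. Both sums leave out multimapping reads, so they compare counted reads only. Mirlet7g stood at 51758 ± 1572, Mirlet7i at 38857 ± 3156, Mirlet7d at 12379 ± 51.5 and Mir98 at 5713 ± 2.13 CPM. Mirlet7e and Mirlet7f-1, the other 2 of the 12 listed genes, are not analysed here.

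Mir615, which is nested in Hoxc5 and belongs to neither family, stood at 1581 CPM in pup 1 and 1378 CPM in pup 2. Its mean of 1479.6 ± 143 CPM lay 3.47 CPM from that of Mir196a-2, the other Hoxc member, and the order turned over between the pups, with a ratio of Mir196a-2 to Mir615 of 0.918 in pup 1 and 1.10 in pup 2. Mir181a-1 (1493 ± 95.8 CPM), next above Mir196a-2 in rank, and Mir425 (1399 ± 22.01 CPM), next below Mir615, each differed from that neighbour by less than the larger SD. Among the members, the order by mean was Mir10a, Mir10b, Mir196b, then Mir196a-2 and Mir615 without a resolved order, then Mir196a-1. Counts of Mir196a-2 and Mir196a-1 leave out reads inside their shared strand, so this order is not that of the mature strands. An exact sign test over 2 pups cannot go below a two-sided p of 0.5, so the order rests on gaps and SDs, not on a test.

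**Figure D3:**
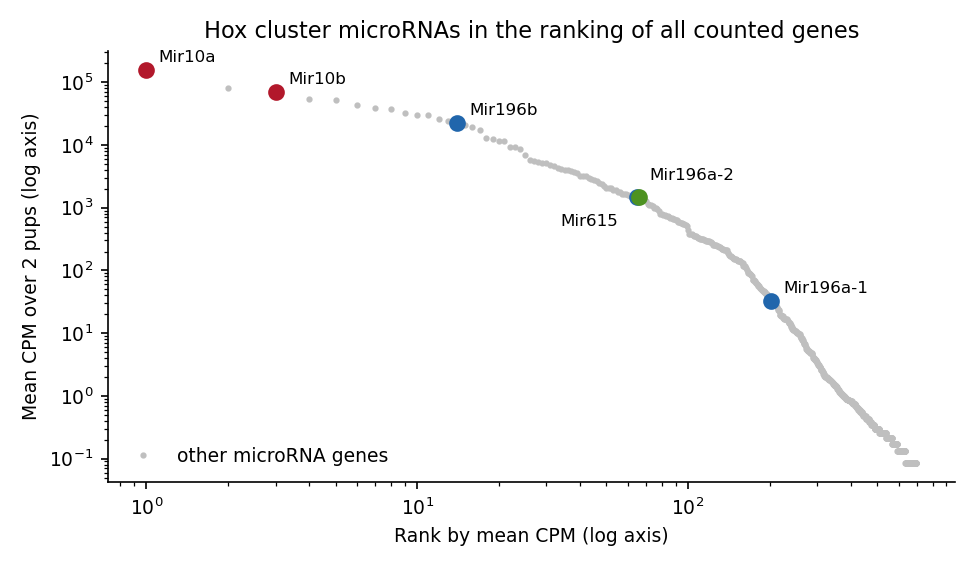
Mean CPM over 2 pups against rank (both log axes) for the 696 microRNA genes with at least 1 count, with the 6 Hox cluster genes coloured by family. They fall at ranks 1, 3, 14, 65, 66 and 203.

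The pups were next compared by an exact two-sided binomial test of the 2 counts of each gene, given edgeR's TMM library sizes and adjusted by Benjamini-Hochberg over the 324 genes whose counts averaged 10 or more. It compares 2 libraries, not conditions, and knows counting error only. All 6 members entered it, and 4 passed at an adjusted p under 0.05, against 33.6% of the genes tested. The 4, Mir10a, Mir10b, Mir196b and Mir615, were lower in pup 2, where 21.0% of tested genes passed as lower. None passed as higher, against 12.7% of the genes tested, and none was higher at an unadjusted p under 0.05 in that exact test either. The members had a median log2 ratio of pup 2 over pup 1 of -0.100, beside -0.042 over all tested genes, and a median absolute ratio of 0.100 beside 0.15.

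The ratios that passed were small. Mir10a had a log2 ratio of -0.082 (95% counting bounds -0.087 and -0.078), with an adjusted p = 5.9e-254 in the exact binomial test. Mir10b had -0.068 (-0.075 to -0.061) and Mir196b -0.12 (-0.13 to -0.10). Mir615 had the largest ratio of those that passed, -0.22 (-0.27 to -0.17), with an adjusted p = 8.5e-18 in that exact test. Mir196a-1 had -0.28, but on few reads (-0.62 to 0.058), and Mir196a-2 had 0.040 (-0.0082 to 0.088). These 2 did not pass, at an adjusted p of 0.25 and 0.24. Of the 74 genes with a mean of at least 1000 CPM, 57 passed, with a median absolute ratio of 0.091, so a call at this depth is common.

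With library totals, DESeq2 size factors or TMM factors from the 324 genes, the last chosen after seeing the data, Mir196a-2 passed as higher in pup 2, giving 1 member higher and 4 lower. The calls over all genes were then 46 higher and 51 lower, 52 and 40, and 48 and 50, against 41 and 68. An edgeR exact test, with a dispersion estimated from the pups themselves (biological coefficient of variation 9.29%), called 0 of the 6 members, and 0 at an unadjusted p under 0.05. It called 1 of all genes (0.309%) and 14 at an unadjusted p under 0.05. Its dispersion comes from the same pair of libraries, so it gives no separate check of the members.

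**Figure D4:**
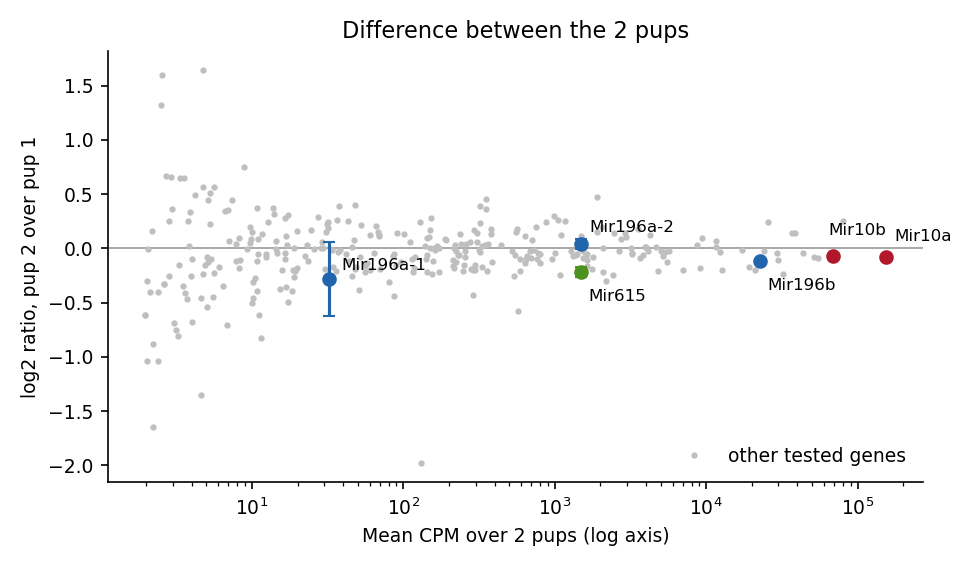
Log2 ratio of pup 2 over pup 1 against mean CPM (log axis) for 324 tested genes, with the 6 Hox cluster microRNAs coloured by family and their 95% counting intervals. The members lie between -0.28 and 0.040.

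The mature sequences allow one further description, of letters only. The 7-base match to each seed was sought on the message strand in the longest annotated 3′ untranslated region of each of 38 Hox genes and of 21037 protein-coding genes (GENCODE M21), whose median lengths were 963 and 960 bases. No message was measured here, and a match is not shown to be a working site. The match to the miR-196 seed, ACTACCT, was in 8 of the 38 Hox genes (21.1%) and in 6.10% of all genes, or 3.13% of those within the Hox range of lengths (30 to 1987 bases). That range kept 15416 genes and dropped every region longer than the longest Hox one, though the medians were already alike. Lengths within it were not matched, so shares within the range can stand too low beside those of Hox genes. Per kb it occurred 0.327 times in Hox genes and 0.0455 times in all genes. The 8 genes were Hoxa4, Hoxa5, Hoxa7, Hoxa9, Hoxb1, Hoxb6, Hoxb7 and Hoxc8, with 4 matches in Hoxa7 and 2 in Hoxc8.

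For the miR-10 seed the match ACAGGGT was in 3 Hox genes, Hoxa3, Hoxb3 and Hoxd1. That is a share of 7.89% beside 12.5% of all genes and 6.93% of those within the Hox range of lengths. Because lengths within that range were not matched, the lower share there does not place the Hox share above other genes. The density of the match was 0.0818 per kb in Hox genes beside 0.0997 in all genes. For miR-615-3p the match GGCTCGG was in Hoxb4 alone (2.63% beside 2.30% of all genes and 1.34% of those within that range). No chance test was made, and paralogous Hox genes share sequence.

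**Figure D5:**
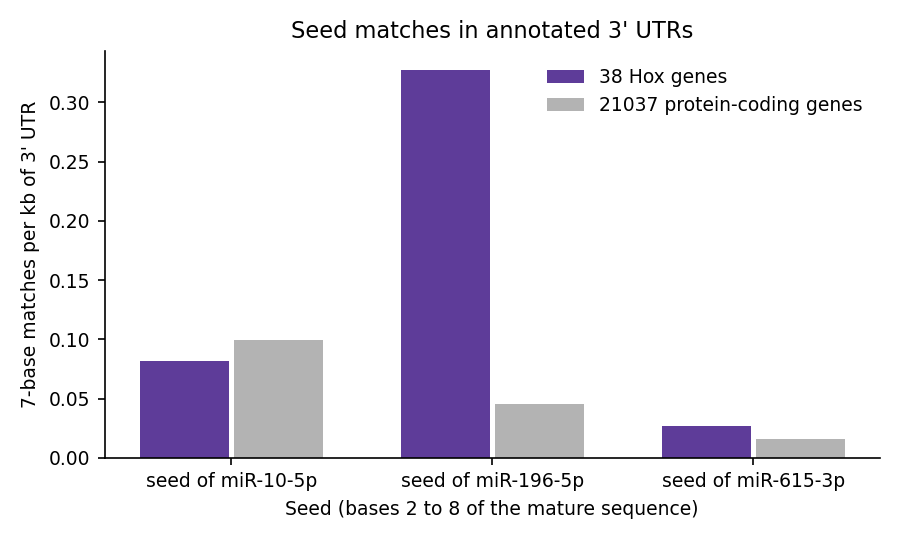
Matches per kb of annotated 3′ untranslated region to the seeds of miR-10-5p, miR-196-5p and miR-615-3p, in 38 Hox genes (purple) and 21037 protein-coding genes (grey). The miR-196 match is denser in Hox genes, 0.327 against 0.0455 per kb, while the miR-10 match stands at 0.0818 against 0.0997 per kb.

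Beyond the seed, the Hox region with the longest run of complementarity to miR-196a-5p was in Hoxb8, a gene of the same cluster as Mir196a-1, at chr11:96284888-96284909 on the plus strand of mm10. It is shown under the mature strand, both from 5′ to 3′, so they pair in opposite directions, with bases that form Watson-Crick pairs in capitals.
miR-196a-5p: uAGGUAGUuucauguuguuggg
Hoxb8 site: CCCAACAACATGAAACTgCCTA
In the mature strand the capitals are the seed. Of its 22 bases, 21 pair with the site and 1, at position 5, forms a G:U wobble, which is why Hoxb8 is not among the 8 genes with an unbroken seed match. With miR-196b-5p the same site has 20 pairs, the wobble and a mismatch at position 12, where the paralogs differ. The longest run was 17 bases for miR-196a-5p in Hoxb8, but 10 for miR-196b-5p, in genes that include Hoxb8 and Hoxa7. It was 9 bases for miR-10a-5p in genes that include Hoxa9 and Hoxb13, and 8 for miR-10b-5p in genes that include Hoxa5 and Hoxa9. For miR-615-3p it was 10 bases, in genes that include Hoxb13 and Hoxb4.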

How the data were processed

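MicroRNA sequencing tables of 2 kidney samples were used. The deposited tables hold raw whole-number read counts per gene, aligned to mm10 and counted over annotation M4, per the deposited notes. The aligner is not given in the sources used here. From the values, the 3 columns hold both strands together, the sense strand (used) and the antisense strand. Rows that name no gene, 41.8% of reads in pup 1 and 42.6% in pup 2, stayed out of library sizes. Of 1973 identifiers, 1894 matched GENCODE M21, all 6 members among them (Mir10b and Mir196a-2 with another version). A count of 0 allows 3 counts, 0.514 CPM in pup 1 and 0.780 CPM in pup 2. CPM, SciPy 1.17.1 binomial tests, TMM (edgeR 4.0.16) and DESeq2 1.42.0 size factors were computed here, with a prior count of 0.5 in log2 ratios. Simulated data with known changes were used to check the binomial test. They held Poisson counting error only, which that test assumes, so they could not show its calls under spread between animals. Hairpins were compared over 22 bases in either orientation. Named genes are the members, their neighbours in rank and place, and the highest of the related lists. One Hox gene is not reported here and was left out of the sequence searches. Hoxa7 and Hoxc8 counts were singled out after seeing them. Members and lists were chosen with earlier results of these data known. The binomial p-values set the difference between the 2 separately labelled pups against counting error and hold no spread between animals.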

Additional observations from a re-analysis of the deposited data

How the results depend on the processing

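Levels of the 6 members were within 1 SD of the values reported under TMM sizes, DESeq2 size factors and either-strand counts. Leaving out a pup leaves the other's value, which lies within 1 SD by construction and shows nothing of stability, and the order of Mir196a-2 and Mir615 turned over without pup 2 (1452 and 1581 CPM). With all reads of the table as the denominator, levels fell to 89314 CPM for Mir10a, 39807 for Mir10b, 13019 for Mir196b, 857 for Mir196a-2, 856 for Mir615 and 18.7 for Mir196a-1, and the joint share to 14.4%, because the total is larger. Without Mir10a in list and total the share was 11.2%. Between the pups, Mir196a-2 passed the binomial test with library totals (log2 ratio 0.061, adjusted p = 0.044), DESeq2 size factors (0.082, 0.0038) and TMM factors from the genes averaging 10 counts or more, chosen after seeing the data (0.063, 0.036). With the edgeR exact test the log2 ratios of Mir10a (-0.082), Mir10b (-0.068), Mir196b (-0.12) and Mir615 (-0.22) no longer passed, and 0 members and 1 of all genes were called, against 4 and 109. No paired analysis was possible because the 2 pups form a single group. Depth (205 and 113 counts) and the multimapping reads left out both limit Mir196a-1.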
